A study of Mus musculus with 12 samples.

Results

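The 10 genes described here are the Toll-like receptors Tlr1, Tlr2, Tlr3, Tlr4, Tlr7, Tlr9 and Tlr13, the co-receptor Cd14, the accessory protein gene Ly86, and Myd88, the adaptor most of these receptors share. They were chosen by name, as the rows of the table of 50563 genes whose Ensembl identifiers carry these symbols in the GRCm38 annotation, and all 10 were found. Expression was measured by poly(A) RNA-seq of brain cortex in 12 mice, 1 library each, and it was asked whether oral n-6 docosapentaenoic acid (DPAn-6), a long-chain omega-6 fatty acid, altered the cortical transcriptome. All mice were E4FAD, a cross that carries human APOE4 in place of mouse Apoe (APOE4+/+) and a hemizygous transgene (5FAD-/+) by which neurons make mutant human amyloid precursor protein and presenilin. Vehicle was gavaged into 7 CTRL mice, 2 aged 12 months and 5 aged 14 months, of which 4 were female and 3 male. DPAn-6 was gavaged daily at 700 mg/kg for 3 weeks into 5 mice, 2 aged 12 months and 3 aged 14 months, of which 3 were female and 2 male. The vehicle, antioxidants included, was common to both groups, and there was no wild-type or untreated group. The sex of single mice was not used, since the labels do not give it.

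Toll-like receptors are sensors of microbial and damage-derived molecules and, in the brain, are made largely by microglia, with some members also made by astrocytes and border macrophages. Tlr1, Tlr2 and Tlr4 sit at the cell surface, where Tlr1 pairs with Tlr2 to sense lipopeptides and Tlr4 senses lipopolysaccharide handed over by Cd14, whereas Tlr3, Tlr7, Tlr9 and Tlr13 sense nucleic acids in endosomes. Ly86 (MD-1) is the partner of Cd180, a receptor related to Tlr4, and Myd88 carries the signal of every Toll-like receptor but Tlr3, which uses Ticam1, on to Irak and Traf6 and from there to NF-kB, AP-1 and interferon regulatory factors.

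The totals lay between 15339098 and 19500154 counts in CTRL and between 15208803 and 26520251 in DPAn-6, and at this depth the 10 genes were low to moderate. Their raw counts ranged from 17 to 56 for Tlr1 and from 23 to 62 for Tlr4, up to 380 to 777 for Ly86. As a check of the tissue, the CPM (counts scaled to the size of each library) of 6 cortical neuron genes, all detected, summed to between 5767 and 8143 in CTRL and between 6654 and 7406 in DPAn-6. Gm42418 had the most counts of any gene in every library but CTRL mouse 3 and DPAn-6 mouse 2. Its share was 0.868% to 3.92% of counts in the other CTRL libraries and 0.491% to 0.810% in the other DPAn-6 libraries. The part of this in the results was not tested. CTRL mouse 3 stood apart from the other libraries. Its levels decreased by 0.517 log2 units per 10% of GC content relative to the mean library, against -0.131 to 0.221 in the other 11, and it was the highest of 12 mice in 26.7% of the 15688 genes tested and the lowest in 35.1%. Choroid plexus RNA also differed between libraries: Ttr, the transthyretin of choroid plexus epithelium, measured 1530 CPM in CTRL mouse 2, 941 CPM in CTRL mouse 5, 167 CPM in CTRL mouse 3 and 24.1 CPM or less in the other 9. Where leaving them out moved a result most, the value without them stands beside it.

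Of the 10 genes only Tlr9 was lower in DPAn-6 at an adjusted p below 0.05, a call that depended on single mice, as given below. The sequence before its start is shown with those of Tlr13 and Tlr1, which averaged lower without passing that test, and of Myd88, which did not average lower. The sequences are RefSeq promoter windows (GRCm38.p6, RefSeq entries for 7 of the 10 genes, in 8 windows of 250 bases). They were cut where the first GENCODE M21 exon that overlaps the window begins, and are written 5′ to 3′ on the strand of the gene. The Myd88 window lies before the RefSeq start but inside the GENCODE span of the gene, chr9:119335934-119341411 (-). Capitals mark matches, on either strand, to the letters GAGGAA (bound by PU.1, the myeloid factor), TGANTCA (AP-1), GGG and TTTCC with any 2 bases between them (NF-kB) and GAAA repeated after any 2 bases (interferon regulatory factors), none of which overlapped another in these windows. The windows are chr9:106222348-106222597 (+) for Tlr9, chrX:106143025-106143203 (+) for Tlr13, chr5:64933564-64933808 (-) for Tlr1 and chr9:119340042-119340268 (-) for Myd88.
Tlr9: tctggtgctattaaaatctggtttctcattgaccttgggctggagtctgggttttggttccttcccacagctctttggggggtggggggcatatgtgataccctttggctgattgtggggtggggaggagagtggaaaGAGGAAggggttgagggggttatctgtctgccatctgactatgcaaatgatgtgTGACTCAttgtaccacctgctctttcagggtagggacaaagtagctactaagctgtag
Tlr13: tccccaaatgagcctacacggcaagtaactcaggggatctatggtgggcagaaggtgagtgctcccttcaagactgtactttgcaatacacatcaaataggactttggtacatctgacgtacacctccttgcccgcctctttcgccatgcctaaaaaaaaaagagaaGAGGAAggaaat
Tlr1: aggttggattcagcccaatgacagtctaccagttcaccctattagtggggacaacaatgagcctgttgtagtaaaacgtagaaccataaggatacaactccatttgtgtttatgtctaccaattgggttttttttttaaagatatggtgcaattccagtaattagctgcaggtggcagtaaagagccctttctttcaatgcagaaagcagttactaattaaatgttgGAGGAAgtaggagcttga
Myd88: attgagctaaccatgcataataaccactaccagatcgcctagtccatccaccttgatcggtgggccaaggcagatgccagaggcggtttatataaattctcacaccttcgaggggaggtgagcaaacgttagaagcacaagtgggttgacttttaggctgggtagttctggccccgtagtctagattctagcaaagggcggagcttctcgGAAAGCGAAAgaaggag
GAGGAA or its reverse complement was found in 3 of the 8 uncut windows, at 112 bases before the RefSeq start of Tlr9, 83 before that of Tlr13 and 23 before that of Tlr1, and in 23.3% of 32851 windows of all genes. The AP-1 letters occurred in 1 window, 58 bases before the start of Tlr9, against 6.75% of all windows. The interferon regulatory factor letters occurred in 1 of the 8, that of Myd88, at 40 bases before the start, against 2.98% of all windows, and the NF-kB letters in 1, that of Tlr3, at 211 bases, against 1.41%. These are matches of letters, and binding was not measured. Tlr2 and Ly86 windows held none of the 4 motifs, nor did the other Tlr1 window (chr5:64932700-64932949), which is not shown. No window was at hand for Tlr4, Tlr7 and Cd14. Ly86 also averaged lower in DPAn-6 (log2 fold change -0.34, edgeR adjusted p = 0.207). The windows shown include the 3 with GAGGAA and leave out that of Ly86, so they do not tie these letters to the lower genes.

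Per length of exon, Ly86 was the highest of the 10 genes and Tlr4 the lowest. Over the 12 mice, Ly86 measured 8.37 ± 1.5 CPM per kb (SD, n = 12), Cd14 5.81 ± 1.04, Tlr3 3.53 ± 1.35 and Myd88 2.53 ± 0.39. Tlr7 at 2.21 ± 1.08, Tlr2 at 1.99 ± 0.50 and Tlr13 at 1.82 ± 0.49 could hardly be ordered: Tlr7 was above Tlr2 in 7 of 12 mice, and Tlr2 above Tlr13 in 7 of 12. Tlr9 at 1.38 ± 0.49 came next, and Tlr1 at 0.608 ± 0.238 and Tlr4 at 0.384 ± 0.147 were the lowest, each below the gene before it in all 12 mice. Even so, the ranges of neighbours in this order overlapped in every case. The receptor for double-stranded RNA, Tlr3, was thus the most abundant Toll-like receptor transcript of the 7 measured.

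**Figure D1:**
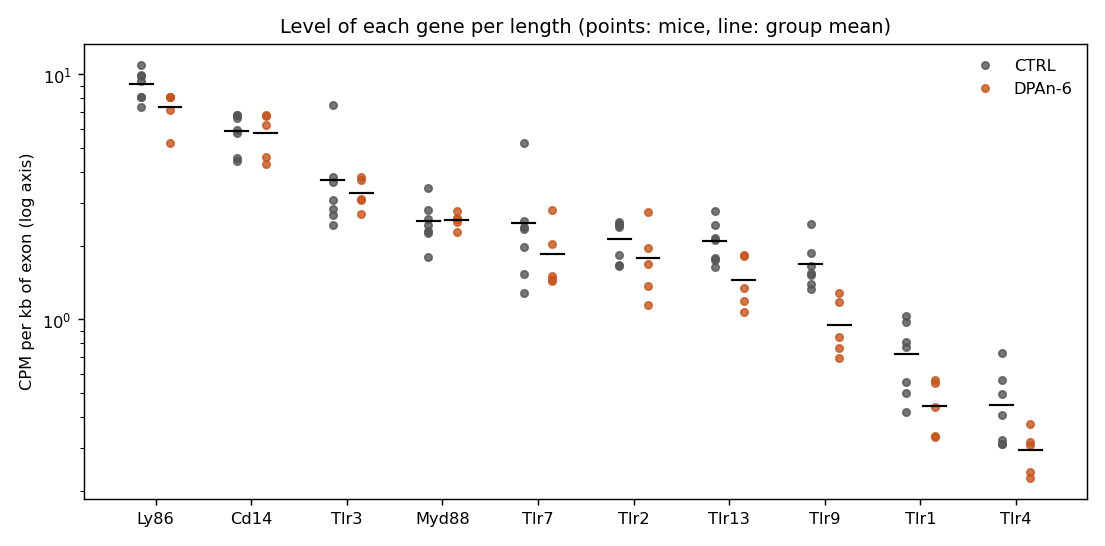
Level of each of the 10 genes in CPM per kb of exon on a log axis, with 1 point a mouse (grey CTRL, orange DPAn-6) and a line at each group mean. Ly86 is at the top with 8.37 CPM per kb over the 12 mice and Tlr4 at the bottom with 0.384, and the highest Tlr3 and Tlr7 points are CTRL mouse 3.

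In DPAn-6 mice Tlr9 was lower than in CTRL, and the other 9 genes did not pass the test adjusted over all genes. With edgeR, 1 of the 10 had an adjusted p below 0.05, where 243 of the 15688 genes tested, or 1.55%, did so, and 1.14% did so with a lower level in DPAn-6. All 10 genes passed the filter on low counts. At an unadjusted p below 0.05, 5 of the 10 were lower (Tlr9, Tlr13, Tlr1, Ly86 and Tlr4) and 0 were higher, whereas 14.5% of all genes had such a p and 9.02% had it on the lower side. Log2 fold changes were below 0 for the 10 genes, though for Myd88 (-0.0044) the sign turned with the scaling, and the median was -0.39, against -0.0047 over all genes, of which 51.3% were below 0. Because whole cortex was sequenced, fewer cells of a type and less RNA per cell cannot be told apart.

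**Figure D2:**
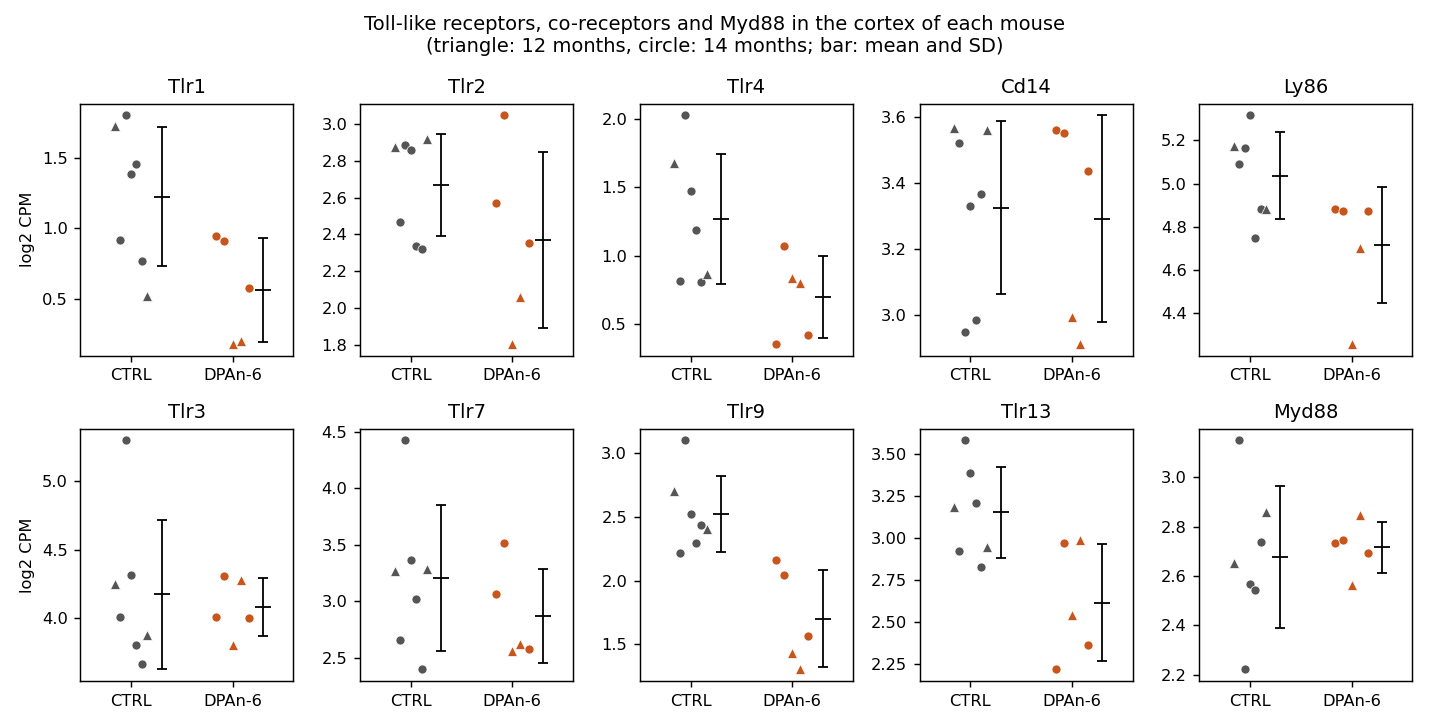
Level of each gene in each mouse as log2 CPM, CTRL in grey and DPAn-6 in orange, triangles for mice of 12 months and circles for mice of 14 months, with a bar for the mean and SD of each group (n = 7 and n = 5). The groups are apart for Tlr9, where DPAn-6 mice reach up to 2.16 and CTRL mice start at 2.22, and overlap in the other 9 panels.

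Of the surface receptors, Tlr1 and Tlr4 averaged lower in DPAn-6 without passing the adjusted test. Tlr1 (chr5:64924679-64933563, GRCm38) ranged in CTRL from 0.52 to 1.80 log2 CPM with a median of 1.38, and was 0.95, 0.91, 0.18, 0.20 and 0.57 in DPAn-6 mice 1 to 5. The groups overlapped, with 4 CTRL mice above every DPAn-6 mouse. The log2 fold change was -0.72 (SE 0.25), with p = 0.0111 and an adjusted p of 0.177 by edgeR, and an exact permutation test of the mean log2 CPM gave p = 0.0354. Tlr1 shares sequence with Tlr6, its neighbour and closest relative: 15.4% of the 50-base windows of its transcripts also occur in transcripts of another gene, 454 of 3332 in Tlr6, and reads from these windows may be left out of its counts. Tlr6 itself was at -0.06 (SE 0.24, edgeR adjusted p = 0.941).

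Tlr4 (chr4:66827584-66930284) ranged in CTRL from 0.81 to 2.03 log2 CPM with a median of 1.19, and was 0.35, 1.07, 0.84, 0.80 and 0.42 in DPAn-6 mice 1 to 5. As for Tlr1, the groups overlapped and 4 CTRL mice were above every DPAn-6 mouse. Its log2 fold change was -0.65 (SE 0.24), with p = 0.0176 and an adjusted p of 0.221 by edgeR, and p = 0.0417 by the exact permutation test. Both genes were highest in CTRL mouse 3. Without it the fold changes of Tlr1 and Tlr4 were -0.61 and -0.49, with adjusted p of 0.129 and 0.164 by edgeR.

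Tlr2 (chr3:83836272-83841767), the partner of Tlr1, ranged in CTRL from 2.32 to 2.92 log2 CPM with a median of 2.86. It was 2.57, 3.05, 1.81, 2.06 and 2.35 in DPAn-6 mice 1 to 5, of which mouse 2 was the highest of all 12 and mice 3 and 4 the lowest. Its log2 fold change was -0.28 (SE 0.20, 95% interval -0.67 to 0.10), with an edgeR adjusted p of 0.572. Cd14, which delivers lipopolysaccharide to Tlr4, showed a similar picture. It ranged in CTRL from 2.95 to 3.57 with a median of 3.37, and was 3.56, 3.55, 2.99, 2.91 and 3.44 in DPAn-6 mice 1 to 5, with a log2 fold change of -0.05 (SE 0.15, 95% interval -0.34 to 0.24, edgeR adjusted p = 0.925). For both genes DPAn-6 mice 3 and 4, those aged 12 months, were the low ones of their group.

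Ly86 (chr13:37345208-37419036) was the most abundant of the 10 and had the smallest SD among CTRL mice. In CTRL it ranged from 4.75 to 5.32 log2 CPM with a median of 5.09, and in DPAn-6 mice 1 to 5 it was 4.88, 4.87, 4.26, 4.70 and 4.87. All 5 were below the CTRL mean, and 2 of them below every CTRL mouse. The log2 fold change was -0.34 (SE 0.12), with p = 0.0155 and an adjusted p of 0.207 by edgeR, and p = 0.0240 by the exact permutation test. Cd180, the receptor it binds, was at 3.94 ± 0.51 log2 CPM in CTRL (SD, n = 7) and 3.52 ± 0.33 in DPAn-6 (SD, n = 5), and edgeR put the difference at -0.51 (SE 0.24, adjusted p = 0.349). It was named here as that partner, after its values were seen.

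Of the endosomal receptors, Tlr9 and Tlr13 differed most. Tlr9 (chr9:106222598-106226883), the receptor for unmethylated CpG DNA, ranged in CTRL from 2.22 to 3.10 log2 CPM with a median of 2.44. In DPAn-6 mice 1 to 5 it was 2.16, 2.04, 1.43, 1.30 and 1.57, each below every CTRL mouse. Such a gap between the groups was found in 3.22% of all genes, and on the lower side in 1.49%. By edgeR it stood at 55.8% of CTRL, a log2 fold change of -0.84 (SE 0.19), with p = 0.000523 and an adjusted p of 0.0419, and the exact permutation test gave p = 0.00126. That is the smallest p that 7 against 5 mice allow.

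The adjusted p of Tlr9 was close to the threshold and depended on single mice. Leaving out each mouse in turn gave log2 fold changes from -0.96 to -0.72 with edgeR adjusted p from 0.0139 to 0.156, below 0.05 without CTRL 2 (0.0479), CTRL 3 (0.0139) or DPAn-6 1 (0.0468) and above it without any 1 of the other 9 mice. The 14-month mice alone, 5 CTRL and 3 DPAn-6, gave -0.64 with an adjusted p of 0.464 by edgeR. With Ttr as a covariate the log2 fold change was -0.93, with a wider SE (0.26) and an adjusted p of 0.298 by edgeR. Ttr itself was lower in DPAn-6 (exact permutation p = 0.0189), so that this fit cannot part the 2. With age as a covariate edgeR gave -0.83 with an adjusted p of 0.0544. Without the 3 CTRL libraries with over 100 CPM of Ttr the adjusted p was 0.0166 by edgeR for -0.80. With a block for the replicate number, which does not pair the mice, it was 0.128 for -0.89.

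Tlr13 (chrX:106143204-106160493), the receptor for bacterial ribosomal RNA, ranged in CTRL from 2.83 to 3.58 log2 CPM with a median of 3.19. In DPAn-6 mice 1 to 5 it was 2.22, 2.97, 2.54, 2.99 and 2.36, of which 3 were below every CTRL mouse. EdgeR gave a log2 fold change of -0.56 (SE 0.17), with p = 0.00525 and an adjusted p of 0.127, and p = 0.0177 by the exact permutation test. DESeq2 gave an adjusted p of 0.0402 for a difference of -0.56, and edgeR with the trend on length and GC content removed gave 0.0166 for -0.55, so that the call for Tlr13 rests on tool and processing.

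Tlr7 and Tlr3, which sense single-stranded and double-stranded RNA, differed by less than the spread between mice. Tlr7 (chrX:167304929-167330558) ranged in CTRL from 2.39 to 4.42 log2 CPM with a median of 3.27, and was 3.06, 3.51, 2.56, 2.62 and 2.58 in DPAn-6 mice 1 to 5 (log2 fold change -0.45, SE 0.30, 95% interval -1.05 to 0.14, edgeR adjusted p = 0.551). Tlr3 (chr8:45395665-45411080) ranged in CTRL from 3.67 to 5.30 with a median of 4.01, and was 4.01, 4.31, 3.81, 4.28 and 4.0 in DPAn-6 mice 1 to 5 (log2 fold change -0.21, SE 0.25, 95% interval -0.69 to 0.27, edgeR adjusted p = 0.764). The top value of both was CTRL mouse 3, and without it the log2 fold change of Tlr7 was -0.14 and that of Tlr3 was 0.07. The exons of Tlr3 overlap an antisense gene, Gm45542, which had 0 to 2 counts.

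The adaptor Myd88 (chr9:119335934-119341411) had the edgeR fold change nearest to 0, while by mean log2 CPM Cd14 differed less (-0.03 against 0.04). It ranged in CTRL from 2.22 to 3.15 log2 CPM with a median of 2.65, and was 2.74, 2.74, 2.56, 2.85 and 2.69 in DPAn-6 mice 1 to 5, all within the CTRL range. The log2 fold change was -0.0044 (SE 0.13), with a 95% interval of -0.27 to 0.26 and an edgeR adjusted p of 0.996, so that a change of more than 0.27 log2 units either way lay outside the interval. Over 11.3% of its exon bases Myd88 overlaps Acaa1a on the opposite strand, which had 290 to 1065 counts against 71 to 171 for Myd88, and whether the counting used strand is not given in the sources used here.

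**Figure D3:**
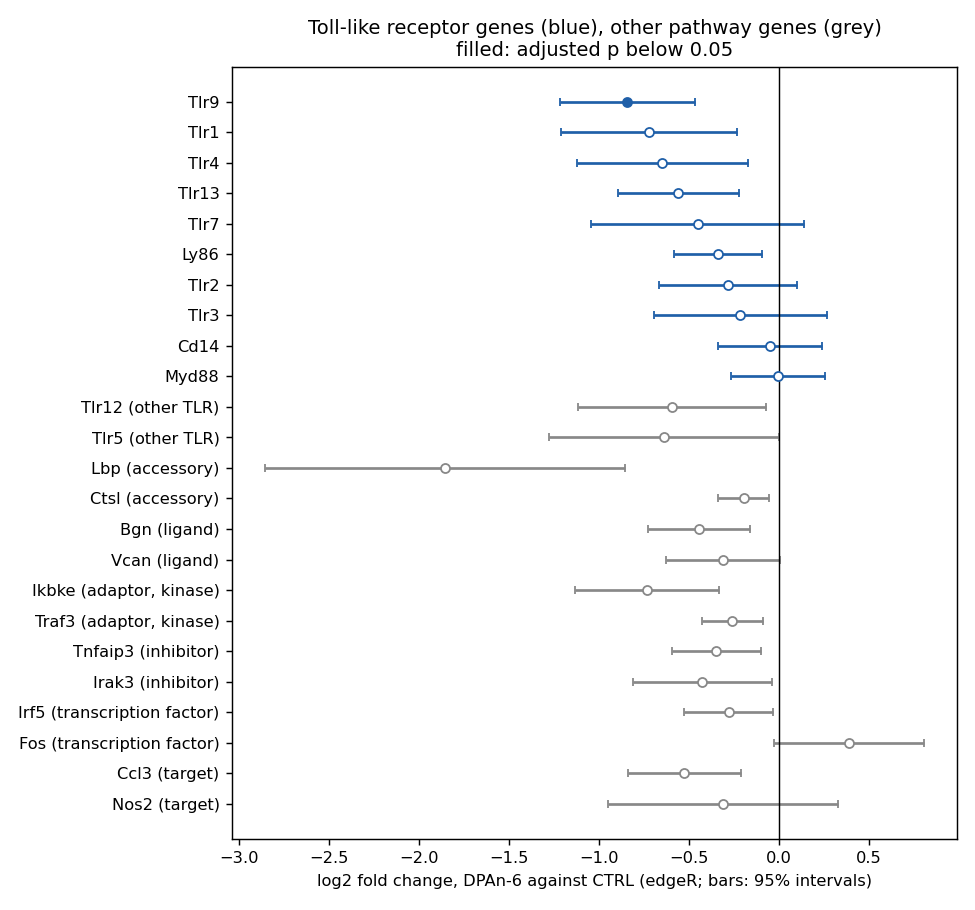
Log2 fold change of DPAn-6 against CTRL by edgeR for the 10 genes (blue) and 2 genes of each other list of the pathway (grey), with bars for 95% intervals. Tlr9 at -0.84 is the filled point, with an adjusted p below 0.05, and Lbp at -1.85 has the widest bar.

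Downstream and around the receptors, 79 other genes of the pathway were examined in 7 lists, and 62 of them were tested. In edgeR 0 had an adjusted p below 0.05, as in limma-voom, whereas DESeq2 called 3, Lbp, Ikbke and Ccl3. At an unadjusted p below 0.05, 15 of these 62 were lower and 0 were higher, against 9.02% of all genes on the lower side. Of the other Toll-like receptors, 3 of 5 were tested, and the lowest p were those of Tlr12 (log2 fold change -0.59, SE 0.27, edgeR adjusted p = 0.320) and Tlr5, the flagellin receptor (-0.64, SE 0.33, edgeR adjusted p = 0.392). Tlr8 and Tlr11 were close to undetected, with 0 to 4 and 0 to 1 counts per library.

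Among 11 other co-receptors and accessory proteins, 9 were tested, 4 were lower at an unadjusted p below 0.05 and the median log2 fold change was -0.17. Lbp, the lipopolysaccharide-binding protein that feeds Cd14, had the largest difference, 1.67 ± 1.05 log2 CPM in CTRL (SD, n = 7) against 0.08 ± 0.53 in DPAn-6 (SD, n = 5). Its edgeR log2 fold change was -1.85 (SE 0.51), with an adjusted p of 0.0886. Its highest values, 3.46 and 2.74, were in CTRL mice 2 and 5, the libraries with the most Ttr, and it moved with Ttr. Without the 3 CTRL libraries with over 100 CPM of Ttr the log2 fold change was -0.84 (SE 0.28, edgeR adjusted p = 0.120), and with Ttr as a covariate it was -0.21 (SE 0.24, edgeR adjusted p = 1.0). Ctsl, a protease that trims endosomal receptors, was at -0.19 (SE 0.07, edgeR adjusted p = 0.221). Ly96, the MD-2 subunit that Tlr4 needs to bind lipopolysaccharide, had 3 to 14 counts and was not tested.

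Of 7 endogenous ligands, 5 were tested and 1 was lower at an unadjusted p below 0.05, with a median of 0.05. Bgn, the matrix proteoglycan biglycan, was at -0.44 (SE 0.14, edgeR adjusted p = 0.154) and Vcan, versican, at -0.31 (SE 0.16, edgeR adjusted p = 0.406). All 20 adaptors and kinases were tested, of which 5 were lower at an unadjusted p below 0.05 and 16 had a log2 fold change below 0, with a median of -0.09. The lowest p belonged to Ikbke, a kinase that activates Irf3 (-0.73, SE 0.20, edgeR adjusted p = 0.0930), and to Traf3, the ubiquitin ligase of the interferon branch (-0.26, SE 0.09, edgeR adjusted p = 0.167).

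Of 8 negative regulators 2 were lower at an unadjusted p below 0.05, Tnfaip3 (A20; -0.35, SE 0.13, edgeR adjusted p = 0.201) and Irak3 (-0.42, SE 0.20, edgeR adjusted p = 0.335), with a list median of 0.04. Of 10 transcription factors 1 was, Irf5 at -0.28 (SE 0.13, edgeR adjusted p = 0.328), while the immediate early gene Fos was at 0.39 (SE 0.21, edgeR adjusted p = 0.431) and the list median was -0.08. The products of the pathway were scarce in this tissue: 7 of 18 target genes passed the filter, and Tnf had 1 to 6 counts and Il1b 1 to 10. Of the 7, Ccl3, a microglial chemokine, was lower at an unadjusted p below 0.05 (-0.52, SE 0.16, edgeR adjusted p = 0.124), and Nos2 was at -0.31 (SE 0.33, edgeR adjusted p = 0.742), with a median of -0.15.

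Genes that mark microglia and border macrophages were lower in the same mice. In edgeR, 4 of 12 homeostatic microglial genes had an adjusted p below 0.05, 4 lower, with a median log2 fold change of -0.48, among them Tmem119 at -0.77 (SE 0.16, edgeR adjusted p = 0.0286). P2ry12 was at -0.49 (SE 0.23, edgeR adjusted p = 0.337), and Cx3cr1 was at -0.05 (SE 0.10, edgeR adjusted p = 0.866). The mean log2 CPM of the 12 was 5.82 ± 0.17 in CTRL (SD, n = 7) and 5.36 ± 0.14 in DPAn-6 (SD, n = 5), with all 5 DPAn-6 mice below every CTRL mouse and p = 0.00126 by the exact permutation test. Their summed level ranged from 890 to 1263 CPM in CTRL and from 661 to 860 CPM in DPAn-6.

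Of 7 border macrophage genes 5 were tested and 3 had an edgeR adjusted p below 0.05. The median log2 fold change was -1.29, with summed levels of 11.3 to 17.0 CPM in CTRL against 4.94 to 7.14 CPM in DPAn-6. Of 8 pan-microglial genes 2 had such a p, with a median of -0.45 and summed levels of 426 to 728 CPM in CTRL against 252 to 480 CPM in DPAn-6. Monocyte and neutrophil markers were near the floor but for Lyz2, which microglia also make and which was the 1 of 9 tested (log2 fold change -0.38). Of the lymphocyte markers 2 of 8 were tested, and Ly6c2, Camp, Plac8, Cd3d and Ms4a1 were at 0 in at least 1 library. Choroid plexus genes summed to between 12.7 and 1661 CPM in CTRL and between 7.51 and 22.9 CPM in DPAn-6. The part of these differences in those of the 10 genes was not tested.

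The 10 genes were also set against the microglial level of the same library. For each mouse the mean log2 CPM of the 12 homeostatic microglial genes was subtracted from that of the gene, and since this mean was lower in DPAn-6 by 0.46, every difference between the groups was raised by that amount. On this scale Myd88 was higher in DPAn-6 by 0.50, with -3.15 ± 0.36 in CTRL (SD, n = 7) and -2.64 ± 0.10 in DPAn-6 (SD, n = 5), and Cd14 was higher by 0.43, with -2.49 ± 0.26 and -2.07 ± 0.28 (exact permutation p = 0.0139 and 0.0253, or 0.0261 and 0.0405 adjusted over all genes). That is what most genes of the cortex did, since 70.9% of all 15688 were higher on this scale at p below 0.05, with a median difference of 0.49. The other 8 genes did not pass the test: Tlr9 was at -0.36 (exact permutation p = 0.0631), Tlr1 at -0.20 (p = 0.389), Tlr4 at -0.11 (p = 0.616) and Tlr13 at -0.08 (p = 0.639), and Tlr7, Ly86, Tlr2 and Tlr3 lay between 0.13 and 0.37 with p from 0.0846 to 0.698.

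The differences of Myd88 and Cd14 were thus close to the median of all genes, and the median of the 10 on this scale was 0.13. Against the mean of the 8 pan-microglial genes the differences of Myd88, Cd14 and Ly86 were 0.57, 0.49 and 0.21 (exact permutation p = 0.0101, 0.00379 and 0.0316, or 0.0244, 0.0159 and 0.0513 adjusted over all genes, which Ly86 did not pass), where 68.5% of all genes were higher at p below 0.05.

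**Figure D4:**
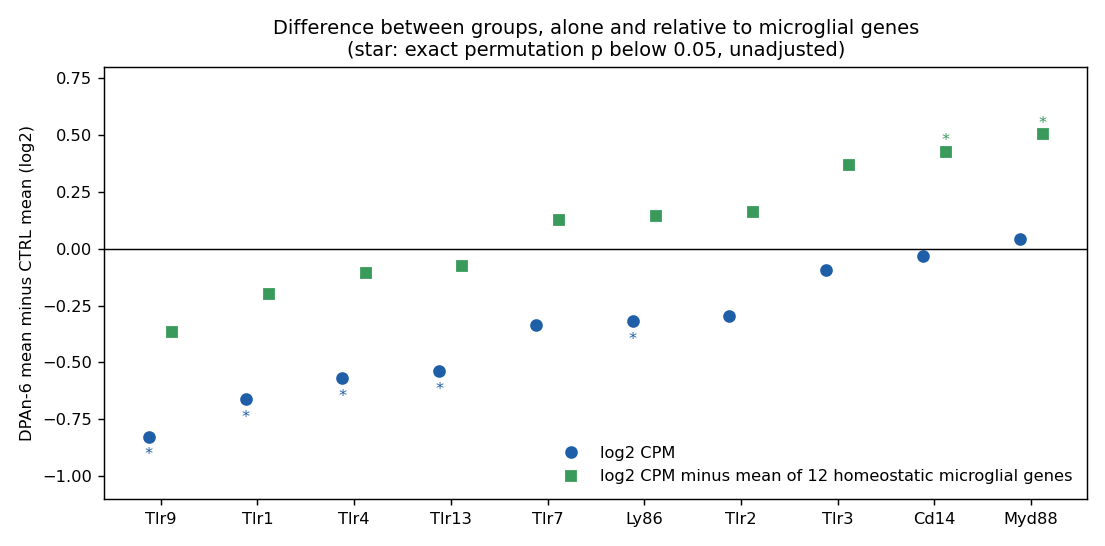
Difference in mean between DPAn-6 and CTRL in log2 units for each gene, as log2 CPM (blue circles) and after subtracting the mean of 12 homeostatic microglial genes in each library (green squares), with a star at an unadjusted exact permutation p below 0.05. The stars are on the 5 lowest circles by p, Tlr9, Tlr1, Tlr4, Tlr13 and Ly86, and on the squares of Cd14 (0.43) and Myd88 (0.50). By log2 CPM 15.8% of all genes had such a p in either direction.

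Tlr2 and Cd14 differed between the groups mainly in the younger mice, in values that did not pass the adjusted test. In the 12-month mice Tlr2 was 2.88 and 2.92 log2 CPM in CTRL and 1.81 and 2.06 in DPAn-6. Its edgeR log2 fold change was -0.97 (SE 0.28) at 12 months and 0.05 (SE 0.20) at 14 months. Cd14 was 3.57 and 3.56 in the 12-month CTRL mice and 2.99 and 2.91 in the 12-month DPAn-6 mice, a log2 fold change of -0.62 (SE 0.19), against 0.24 (SE 0.14) at 14 months. The interaction of age and treatment was 1.03 (SE 0.34) for Tlr2 and 0.85 (SE 0.23) for Cd14, with unadjusted p of 0.00969 and 0.00299 in edgeR. Neither passed after adjustment over all genes, with edgeR adjusted p of 0.905 and 0.869, and 4.26% of all genes had an unadjusted interaction p below 0.05, or 0.00637% (1 gene) an adjusted one. The log2 fold change of Tlr9 was -1.21 (SE 0.32) at 12 months and -0.65 (SE 0.22) at 14 months, and the interaction was 0.56 (SE 0.39, edgeR unadjusted p = 0.174, adjusted p = 0.905). With 2 mice a group at 12 months, these values rest on 4 mice. The 12-month DPAn-6 mice, 3 and 4, also had the lowest pan-microglial means, 4.305 and 4.605 log2 CPM, against 4.912 or more in the others. Their homeostatic means were 5.139 and 5.417, with DPAn-6 mouse 1 at 5.318. The part of these levels in the age pattern was not tested.

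**Figure D5:**
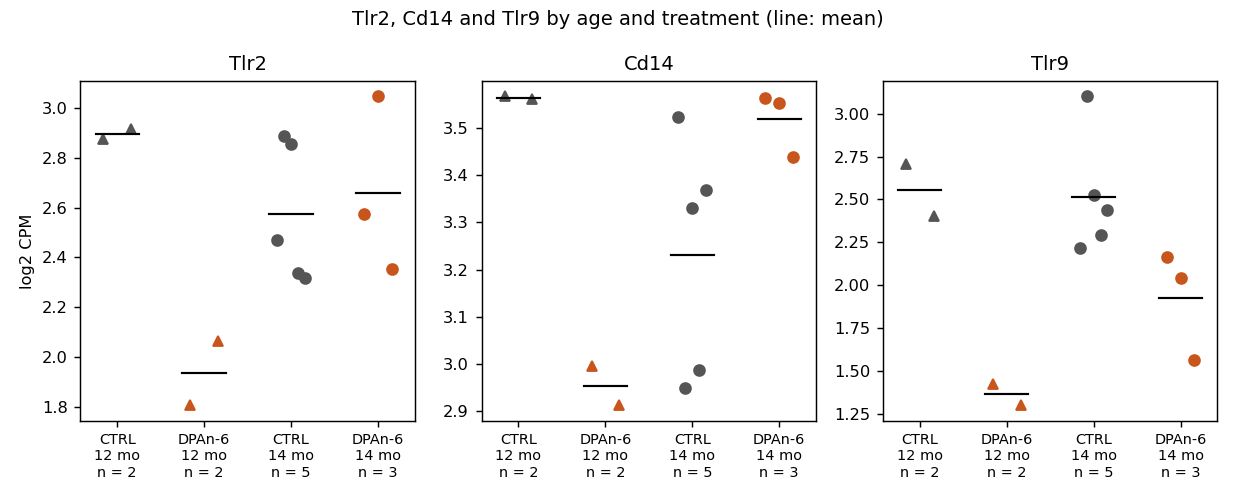
Level of Tlr2, Cd14 and Tlr9 in log2 CPM by age and treatment, with 1 point a mouse and a line at each mean (12 months n = 2 and 2, 14 months n = 5 and 3). The 12-month DPAn-6 mice are the lowest of all for Tlr2 (1.81 and 2.06) and Tlr9 (1.30 and 1.43), and for Cd14 (2.91 and 2.99) they lie beside the 2 lowest CTRL mice of 14 months.

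Correlations between the 10 genes over mice were mostly positive, but not those of Myd88 with the Toll-like receptors. After each group was centred on its mean, 34 of the 45 pairs had a positive Pearson r, with a median of 0.47 over 12 mice, where 50.4% of all pairs of the 15688 genes were positive. Without CTRL mouse 3, 37 of the 45 were positive, with a median of 0.45, against 50.1% of all pairs. With all mice, each negative pair held Myd88 or Cd14. The centred r of Myd88 was negative with every Toll-like receptor, from -0.70 with Tlr4 to -0.09 with Tlr2. Without CTRL mouse 3 it ran from -0.49 with Tlr4 to 0.08 with Tlr3. None of the negative pairs had an adjusted p below 0.05 by permutation. With all mice 8 pairs had an adjusted p below 0.05 by permutation after centring. None did by Spearman's rho after centring, by which the smallest adjusted p was 0.0729. With the groups pooled, 14 pairs did by Pearson r and 3 by rho. The share of all pairs of genes with such a p was not computed, so these counts are given as a description. Tlr4 and Tlr13 were the closest pair by pooled r (pooled r = 0.907, permutation p = 9e-05, adjusted over the 45 pairs 0.00405; rho = 0.853, p = 0.00075, adjusted 0.0169). After centring their r was 0.853. Without the 2 mice farthest from the median of Tlr4 the pooled r was 0.924 and the centred r 0.879. Tlr2 and Tlr7 followed the same form (pooled r = 0.750, permutation p = 0.00399, adjusted 0.0252; rho = 0.888, p = 0.00035, adjusted 0.0158), with r = 0.720 after centring. Without the 2 mice farthest from the median of Tlr2 the pooled r was 0.754 and the centred r 0.710. Of the 8 pairs, 7 had a lower centred r without CTRL mouse 3, as Tlr3 with Tlr7 (0.849 to 0.621) and Tlr4 with Tlr7 (0.753 to 0.553), and Tlr2 with Tlr7 a higher one (0.720 to 0.863). The pooled r of 0.837 between Tlr3 and Tlr7 dropped to 0.417 without the 2 farthest mice, and so rests on them.

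Across the whole table, the named genes most like each of the 10 over the 12 mice, by Pearson r after centring each group, were as follows. Tlr2 went with Nckap1l, a leukocyte actin regulator (r = 0.954), Tlr9 with Pcdhb2 (0.891) and Clec7a, the receptor Dectin-1 (0.86), and Cd14 with the complement gene C4b and Kctd15 (0.942 each). Tlr1 went with Havcr2 (0.869), the microglial checkpoint receptor Tim-3, and Riok1 (0.86), Tlr4 with Tbc1d8b (0.965) and Scarb2 (0.946), Tlr7 with Stk4 (0.948) and Rhoj (0.924), and Tlr13 with Cep350 (0.944) and Rbm4 (0.939). Tlr3 followed Gpm6b (0.978), an astrocyte-rich membrane protein, and Fgf2 (0.975), Myd88 followed Tmcc2 (0.943) and Sox17 (0.938), Ly86 followed Foxc1 (0.949) and Galnt4 (0.923), and the next gene for Tlr2 was Aldh1l2 (0.904). With 12 mice and 15688 genes to choose from, high values of r are given as a description. Without CTRL mouse 3 the r of Tlr9 with Clec7a was 0.78 and that of Tlr3 with Gpm6b 0.939.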

How the data were processed

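Cortical RNA of 12 E4FAD mice was sequenced after poly(A) selection. The deposited table holds raw gene counts, which the authors made with STAR 2.5.3a (GeneCounts) on GRCm38, Ensembl release 88; the strand setting is not given in the sources used here. Totals ran from 15208803 to 26520251 counts per library. The 12 columns were matched to the samples by their labels, and names and positions were taken from GENCODE M21 on the same build.

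Groups were compared with edgeR 4.0.16 (quasi-likelihood test, TMM, filterByExpr, no covariate) in R 4.3.3, with Benjamini-Hochberg adjustment over the 15688 genes tested. Single genes were also compared by two-sided exact permutation tests of log2 CPM (pseudocount 0.5; SciPy 1.17.1), for which the smallest p is 0.00126. The study itself used limma-voom, which was run as an alternative (limma 3.58.1), as was DESeq2 1.42.0. The 95% intervals of fold changes use the normal distribution. The scripts were tested on simulated counts. Other alternatives were library totals without TMM, other filters, age as a covariate, 14-month mice only, a replicate block and leaving out each mouse in turn. Chosen later, with the data in view, were Ttr as a covariate, an offset for the trend of libraries on exon length and GC content, and leaving out the 3 CTRL libraries with over 100 CPM of Ttr.

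The 10 genes and all lists were chosen with earlier results of these data known. Named were the 10 genes, from each other pathway list any gene called and otherwise the 2 with the smallest p, Tmem119, P2ry12 and Cx3cr1, and for each of the 10 the 2 most similar genes, leaving out predicted (Gm), Rik and mitochondrial names. Cd180, Tlr6, the scarce Tlr8, Tlr11, Ly96, Tnf and Il1b, markers at 0 and genes called only under an alternative were named after their values were seen. Tests relative to microglial genes were adjusted over all genes, not over the 10. Intervals of single values beyond these were not computed.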

Additional observations from a re-analysis of the deposited data

Results flagged for a closer look

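Tlr3 in CTRL mouse 3 was 5.30 log2 CPM, far above the other 6 CTRL mice, which lay between 3.67 and 4.31. The gap was 0.604 of the range of the group, past Dixon's critical value for 7 samples. Chance flags about 1 in 20 groups, and CTRL mouse 3 was also the library with the strongest trend on GC content and the highest level of Tlr1, Tlr4, Tlr7, Tlr9 and Tlr13. The part of that trend in the value of Tlr3 was not tested.

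The treatment difference of Tlr2 at 14 months minus that at 12 months was 1.03 log2 units (edgeR unadjusted p = 0.00969, adjusted p = 0.905). For Cd14 it was 0.854 log2 units (edgeR unadjusted p = 0.00299, adjusted p = 0.869). Both stood out by the unadjusted test of the interaction, which 4.26% of all genes also passed, and 1 gene of 15688 passed it after adjustment. The 12-month values rest on 2 mice a group.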

How the results depend on the processing

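The count of all genes with an adjusted p below 0.05 was 243 in edgeR. It was 696 in DESeq2, 9 in 14-month mice, 17 with Ttr as a covariate, 466 with the length and GC trend removed, 541 without the 3 CTRL libraries rich in Ttr, and between 64 (without DPAn-6 mouse 3) and 953 (without CTRL mouse 3) when single mice were left out. Of the 10 genes 1 was called, against 2 in DESeq2 and with the trend removed, 0 with age or Ttr as a covariate and in 14-month mice, and 0 to 1 with single mice left out. At an unadjusted p below 0.05 there were 5, against 2 in 14-month mice, 2 with Ttr as a covariate and 4 to 6 with single mice left out. The replicate numbers do not pair the mice (correlations of same-numbered mice -0.126 to 0.219, and 0 of 5 correlated best with their own number). With the replicate block 79 genes were called, 0 of them among the 10, and 1 accessory gene, and Tlr9 was at -0.89 (edgeR adjusted p = 0.128).

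Tlr9 lost its call with age as a covariate (-0.83), in 14-month mice (-0.64) and with Ttr as a covariate (-0.93), and ranged from -0.96 to -0.72 with single mice left out. Tlr13 gained one in DESeq2 (-0.56) and with the trend removed (-0.55). Tlr2 turned sign in 14-month mice (0.065), as did Cd14 (0.25), and Tlr3 without the Ttr-rich libraries (0.023). Myd88 was above 0 in limma-voom (0.012), with library totals (0.018), without a filter (0.013), with a minimum of 1 CPM in 5 mice (0.00043), in 14-month mice (0.030), with the block (0.058) and with Ttr as a covariate (0.040). With single mice left out, Tlr3 ranged from -0.30 to 0.070, Myd88 from -0.063 to 0.085 and Cd14 from -0.11 to 0.045.

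Among the accessory genes, 1 was called in DESeq2 and 1 without a filter (Lbp both times, lower in DPAn-6). Without the Ttr-rich libraries 2 were called, Hsp90b1, which was higher in DPAn-6 (0.29), and Lgmn, which was lower (-0.23). With single mice left out 0 to 2 were called. Of the adaptors and kinases, 1 was called in DESeq2 (Ikbke) and 1 without the Ttr-rich libraries (Traf3), and of the target genes 1 in DESeq2 (Ccl3). With single mice left out the adaptors, ligands and negative regulators each had 0 to 1. Without CTRL mouse 3 the 1 was Traf3 (-0.31), Hspd1 (0.30, so higher in DPAn-6) or Tnfaip3 (-0.40).

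In the exact permutation tests, 14-month mice alone (smallest p 0.0179) gave Tlr1 -0.45, Tlr4 -0.65, Tlr13 -0.67 and Ly86 -0.16, all with a p above 0.05, and turned Tlr2 (0.084) and Cd14 (0.29). With single mice left out the differences ran from -0.78 to -0.56 for Tlr1, -0.47 to -0.16 for Tlr2, -0.18 to 0.095 for Tlr3, -0.66 to -0.44 for Tlr4, -0.63 to -0.44 for Tlr13, -0.035 to 0.12 for Myd88, -0.10 to 0.061 for Cd14 and -0.37 to -0.20 for Ly86. The exact permutation p stayed below 0.05 in 5 of these 12 runs for Tlr1 (up to 0.0879) and 5 for Tlr4 (up to 0.0939). It did so in 9 for Ly86, 11 for Tlr13 and 12 for Tlr9. Relative to microglial genes, 14-month mice gave Tlr2 0.46, Ly86 0.21 and Myd88 0.46, of which the last missed the threshold, and the pan-microglial list gave Ly86 0.21. Ranges there with single mice left out were 0.30 to 0.54 for Tlr3, -0.20 to 0.0028 for Tlr4, -0.49 to -0.25 for Tlr9, -0.16 to 0.012 for Tlr13, 0.35 to 0.54 for Cd14 and 0.090 to 0.20 for Ly86. The causes were not tested, apart from the fewer mice where some were left out. Counts of 17 to 62 limit Tlr1 and Tlr4.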
